A study of Homo sapiens with 2 samples.

Results

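The long non-coding RNA (lncRNA) genes MALAT1, NEAT1, KCNQ1OT1, TUG1, PVT1, NORAD, H19 and CYTOR were taken by symbol from a table of expression values of SUM-159, a triple-negative breast cancer cell line. They are 8 of 60839 genes in the table and 8 of the 15922 that GENCODE release 29 lists as long non-coding, of which 7321 had a read in at least 1 library. One library came from cells labelled PD-L1L2-SE deficient and 1 from cells of the same line labelled sgVector, the control. With 1 library per group no difference has a replicate check, so no test was possible and none was made. The deficient library held 16381546 reads on genes and the sgVector library 16206675. The sources used here do not say whether the deficient cells were a clone or a pool.

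An lncRNA is a transcript that is not translated into a known protein, and many work at the place where they accumulate. MALAT1 gathers in nuclear speckles, the stores of splicing factors, and NEAT1 is the scaffold on which paraspeckles are built. KCNQ1OT1 stays on chromatin, where it silences neighbouring genes of an imprinted domain. NORAD is found mostly in the cytoplasm, where it binds Pumilio proteins such as PUM2, repressors of many mRNAs, and H19 and CYTOR are also described there. TUG1 and PVT1 have been found in both compartments. The compartments used here come from this background knowledge, since the libraries hold no measurement of location.

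The nuclear pair and NORAD carry sequence features that can be read directly from their transcripts. MALAT1 and the long form of NEAT1 end in a triple helix rather than a normal poly(A) tail, formed by U-rich stretches and an encoded A-rich tract. The stretches below are from the longest GENCODE release 29 transcripts of the genes, written as DNA, with the U-rich motif TTTTGCTTT and the A-rich tract in capitals.

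MALAT1: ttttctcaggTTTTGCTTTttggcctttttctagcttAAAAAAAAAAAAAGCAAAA

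NEAT1: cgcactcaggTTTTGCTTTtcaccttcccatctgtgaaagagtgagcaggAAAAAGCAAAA

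In MALAT1 the printed stretch spans bases 8300 to 8355 of a transcript of 8708 bases, so 353 annotated bases follow it. In NEAT1 it spans bases 22683 to 22743 and closes the transcript. The motif TTTTGCTTT followed by AAAAGCAAAA within 120 bases, on the transcript strand, occurred in the longest transcript of 8 of 58676 genes (0.0136%). The U-rich motif alone is common, being held by 17.9% of transcripts within 20% of the length of MALAT1.

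NORAD is set apart by Pumilio elements, written here as TGTANATA, where N is any base. Its single GENCODE transcript of 5339 bases held 15 of them on the transcript strand, between bases 761 and 4599. Of these 10 read TGTATATA, 4 TGTAAATA and 1 TGTACATA. Among 4340 genes whose longest transcript lies within 20% of that length, 41.4% held at least 1 element and 0.0461% as many as NORAD. Examples follow, with the element in capitals and 11 bases on either side, so that the elements and their flanks can be compared.

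NORAD site 2: cctcactactgTGTATATAgttgacaatgc

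NORAD site 11: caaccctactgTGTATATAgcggacaaact

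NORAD site 14: caatgctactgTGTATATAatggaaaactt

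NORAD site 3: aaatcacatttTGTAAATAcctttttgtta

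NORAD site 6: aaataccacttTGTAAATAtctttttgcta

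NORAD site 8: gaataacacttTGTAAATAgcttttaaaaa

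NEAT1 held 6 such elements over 22743 bases, KCNQ1OT1 9 over 91667 bases and TUG1 2, and the longest transcripts of MALAT1, PVT1, H19 and CYTOR held none. A match describes the letters and is not a measured binding site.

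The labels were checked on the genes after which the deficient element (SE in the label) is named. CD274 and PDCD1LG2, which encode PD-L1 and PD-L2 and give the element its name, had 47 and 46 reads in the deficient and 477 and 204 in the sgVector library, in the direction of the labels. The mesenchymal marker VIM stood at 390 and 746 RPKM in the deficient and sgVector libraries, and the epithelial or hormone receptor genes CDH1, EPCAM, ESR1 and PGR had 6 reads or fewer in each. ERBB2, the gene of the receptor HER2, had 1690 reads in the deficient against 1175 in the sgVector library, a log2 ratio of 0.50. Of the markers of other cell types CD3E had 0 reads in both, PTPRC, CD79A and CDH5 5 or fewer, and HBB 49 in the deficient against 4 in the sgVector library. In bulk RNA fewer cells of a type and less RNA per cell cannot be told apart. Of 3 RNAs measured that lack a poly(A) tail, RN7SK had 0 reads in both libraries, TERC 2 and 1, and RMRP 10 and 13 (2.28 and 2.99 RPKM). The part of poly(A) selection in the MALAT1 and NEAT1 values was not tested.

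The label "abundant" holds for 6 of the 8 genes. RPKM, the reads on a gene divided by its length in kilobases and scaled to 1000000 reads, allows levels to be set side by side between genes. In the sgVector library the order of RPKM was MALAT1 at 491, PVT1 at 120, NEAT1 at 109.97, NORAD at 52.2, TUG1 at 13.7, CYTOR at 4.32, KCNQ1OT1 at 0.355 and H19 at 0.0426. In the deficient library NEAT1 stood above PVT1 and the rest of the order was the same. How far neighbours in this order would differ between replicates cannot be given from these libraries.

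MALAT1 had the highest RPKM of any lncRNA gene in both libraries. By RPKM, NEAT1 was at rank 3 among lncRNA genes in the deficient library against rank 6 in the sgVector library, PVT1 at 5 and 3, and NORAD at 11 and 18. KCNQ1OT1, at rank 3108 and 2696, and H19, at rank 5076 and 5659, were below the level of 1 RPKM averaged over both libraries that was required for the comparisons. Of the lncRNA genes 1166 passed that level, and of all genes 13552.

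**Figure D1:**
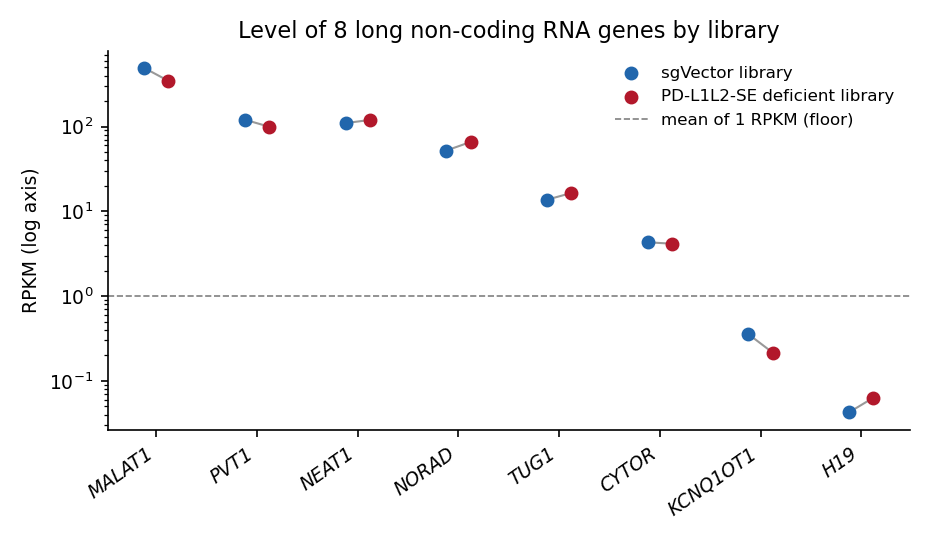
RPKM of the 8 lncRNA genes on a log axis, with 1 point per library (blue, sgVector; red, PD-L1L2-SE deficient) and a dashed line at 1 RPKM. MALAT1 is highest in both libraries (491 and 346), and KCNQ1OT1 and H19 lie under the dashed line in both.

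The 8 genes took 0.694% of all reads on genes in the deficient library against 0.803% in the sgVector library. Within the lncRNA reads alone their share was 36.9% against 37.1%, and MALAT1 and NEAT1 together made up 30.7% against 31.6%. The share of lncRNA reads taken by the set thus lay close together in both libraries, while lncRNA genes as a whole took 1.88% of reads in the deficient against 2.16% in the sgVector library. Mitochondrial genes also took less of the deficient library, 6.50% against 7.99%. With totals that leave out mitochondrial genes, the log2 ratios of the 6 members past the floor, given further on, kept their signs, with MALAT1 at -0.53, NEAT1 at 0.099 and NORAD at 0.31.

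Among the 6 genes past the floor, 3 were higher in the deficient library (NORAD, TUG1, NEAT1) and 3 lower (MALAT1, PVT1, CYTOR), and none differed 2-fold. A ratio here is the log2 of RPKM plus 0.1 in the deficient over the sgVector library. Of all genes past the floor 3.03% were 2-fold higher or more and 4.69% were 2-fold lower or more, and of lncRNA genes 4.63% and 14.5%. The median log2 ratio of the 6 was 0.03, against -0.05 for all genes and -0.27 for lncRNA genes past the floor. Most lncRNA genes are read far less deeply than these, and the 58 with at least 1000 reads over both libraries had a median of -0.14, with 38 below 0.

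The 95% counting interval of the fold, from exact Clopper-Pearson limits, lay above no change for 3 of the 6 genes and below it for 2. Over all genes past the floor it lay above for 25.9% and below for 32.6%, and over lncRNA genes for 10.1% and 28.5%. Such an interval covers counting error only and narrows with read number, so for the deeply read genes it says little about how a second culture would differ.

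**Figure D2:**
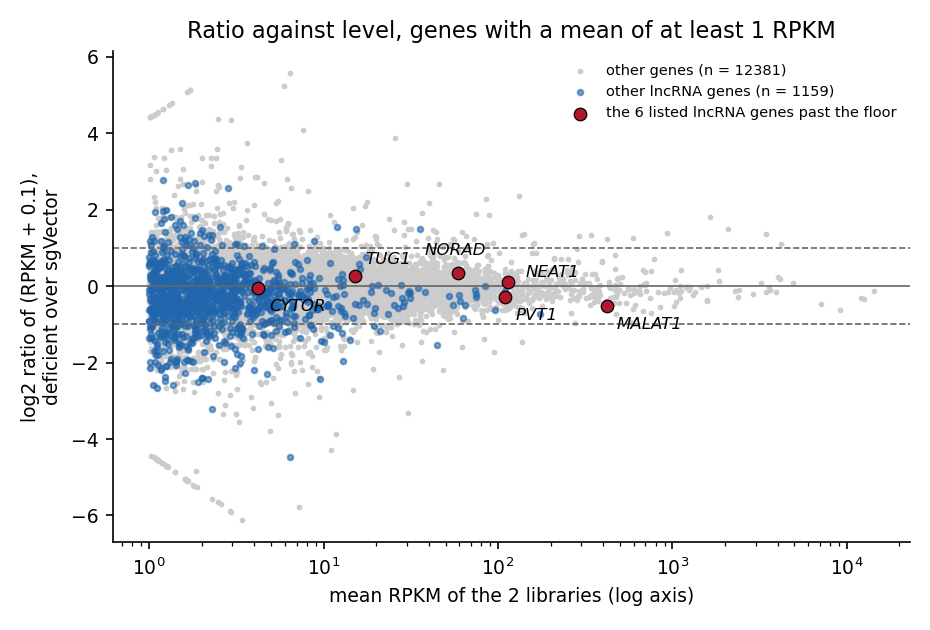
The log2 ratio of RPKM plus 0.1, deficient over sgVector, against mean RPKM on a log axis for genes past the floor of 1 RPKM, a few sex-linked genes not drawn (grey, other genes; blue, other lncRNA genes; red, the 6 listed genes past the floor; dashed lines, 2-fold). The 6 genes lie between -0.51 (MALAT1) and 0.33 (NORAD), inside the dashed lines.

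The nuclear-retained RNAs did not share a direction. MALAT1 (ENSG00000251562, hg19 chr11:65265159-65273987, plus strand), counted over 1 unbroken exonic block of 8829 bases, had 50009 reads in the deficient library against 70319 in the sgVector library. Its level was 346 RPKM against 491, a log2 ratio of -0.51, or 1.42-fold lower (interval 1.41 to 1.44). It alone made up 0.305% of all reads on genes in the deficient library against 0.434% in the sgVector library. Among the 6458 genes of any class with at least 1000 reads, 8.01% had a lower ratio than MALAT1, and it ranked 10 from the bottom among the 58 such lncRNA genes.

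NEAT1 (ENSG00000245532, hg19 chr11:65190245-65213011, plus strand) lies on the same arm, with its end 52.1 kb before the start of MALAT1. It had 44626 reads in the deficient against 40575 in the sgVector library, or 119.7 against 109.97 RPKM. The log2 ratio was 0.12, or 1.09-fold higher (1.07 to 1.10). The gene is counted over 22767 bases, and its annotated transcripts run from 512 to 22743 bases. One value per gene cannot separate the short from the long form, and the long form is the one that builds paraspeckles.

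Since MALAT1 and NEAT1 are read in the same library, their ratio does not depend on the scaling between libraries. There were 0.892 NEAT1 reads per MALAT1 read in the deficient library against 0.577 in the sgVector library, a change of 1.55-fold (1.52 to 1.57, Woolf interval on the log scale, counting error only). Per length, MALAT1 stood 2.89-fold above NEAT1 in the deficient and 4.47-fold in the sgVector library. This ratio shows that the neighbouring nuclear RNAs diverged, but not the direction of each, which depends on the scaling. By RPKM, MALAT1 was lower in the deficient library and NEAT1 higher by a smaller amount. With the GC and length correction given further on, NEAT1 was at 0.01.

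KCNQ1OT1 (ENSG00000269821, hg19 chr11:2629558-2721224, minus strand) is a single block of 91667 bases antisense to KCNQ1. It had 324 reads in the deficient against 528 in the sgVector library, or 0.216 against 0.355 RPKM. By read shares it was 1.65-fold lower (1.43 to 1.90), with a log2 ratio of -0.53 once the 0.1 is added, since the level is near that constant. KCNQ1, which shares 121 exonic bases with it on the opposite strand, had 5 reads against 1. Though below the floor, KCNQ1OT1 was above 60.9% of the lncRNA genes with a read.

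The RNAs of both compartments also went apart. TUG1 (ENSG00000253352, hg19 chr22:31365231-31375381, plus strand), first described as needed for retinal development, had 2734 reads in the deficient against 2257 in the sgVector library. That is 16.4 against 13.7 RPKM, a log2 ratio of 0.26, or 1.20-fold higher (1.13 to 1.27). PVT1 (ENSG00000249859, hg19 chr8:128806779-129113499, plus strand), the neighbour of MYC and often gained with it in cancer, had 8966 reads against 10721. Its level was 99.6 against 120 RPKM over 21 merged exons, a log2 ratio of -0.27, or 1.21-fold lower (1.18 to 1.24).

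Among the cytoplasmic RNAs NORAD was higher and CYTOR gave no difference beyond counting error. NORAD (ENSG00000260032, hg19 chr20:34633544-34638882, minus strand) had 5754 reads in the deficient against 4514 in the sgVector library, or 65.8 against 52.2 RPKM. Its log2 ratio of 0.33, 1.26-fold higher (1.21 to 1.31), was the highest of the 6, and 83.8% of genes with at least 1000 reads had a lower one. Of its 50-base words 35.3% also occur in transcripts of other genes, and OVCH1-AS1 alone holds 22.7% of the words. The sources used here do not say how reads that fit several places were treated, so the NORAD count carries that uncertainty.

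CYTOR (ENSG00000222041, hg19 chr2:87754300-87936259, plus strand) had 1203 reads in the deficient against 1238 in the sgVector library, or 4.15 against 4.32 RPKM. The fold of 0.961 had an interval from 0.887 to 1.04, and its log2 ratio of -0.06 became 0.02 with TMM (trimmed mean of M values) scaling. CYTOR shares 24.9% of its 50-base words with other genes, and its near copy MIR4435-2HG alone holds 16.0% of the words. That copy had 1224 reads against 1263, a log2 ratio of -0.06, so the pair cannot be read as independent.

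H19 (ENSG00000130600, hg19 chr11:2016406-2022700, minus strand), an imprinted RNA abundant in fetal tissue, had 3 reads in the deficient against 2 in the sgVector library. Both are at or under 3 reads, the number that a count of 0 would still allow, and no fold is given.

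By compartment, the median log2 ratio of the members past the floor was -0.19 for the nuclear pair MALAT1 and NEAT1, -0.01 for TUG1 and PVT1 and 0.14 for NORAD and CYTOR. Each pair held 1 gene above 0 and 1 below, so the difference of -0.33 between nuclear and cytoplasmic medians rests on MALAT1 and NORAD. NORAD reads per MALAT1 read changed 1.79-fold (1.72 to 1.87) between libraries, against 1.16-fold (1.11 to 1.21) for NORAD per NEAT1 read. NORAD per TUG1 read changed 1.05-fold (0.983 to 1.13), an interval that spans no change. The libraries thus set MALAT1 apart from NEAT1 by more than they set NEAT1 apart from NORAD.

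A lowess correction for GC content and gene length moved all 3 of the higher genes toward 0 and MALAT1 away from it. The log2 ratios became -0.67 for MALAT1, 0.01 for NEAT1, 0.14 for TUG1, 0.25 for NORAD, -0.17 for PVT1 and -0.22 for CYTOR. The GC content was 40.3% in MALAT1, 44.1% in NEAT1, 43.1% in TUG1 and 41.6% in NORAD, under the median of 47.8% over all genes past the floor, and 52.2% in PVT1. NEAT1 thus stood above 0 by 0.12 before the correction and by 0.01 after it.

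**Figure D3:**
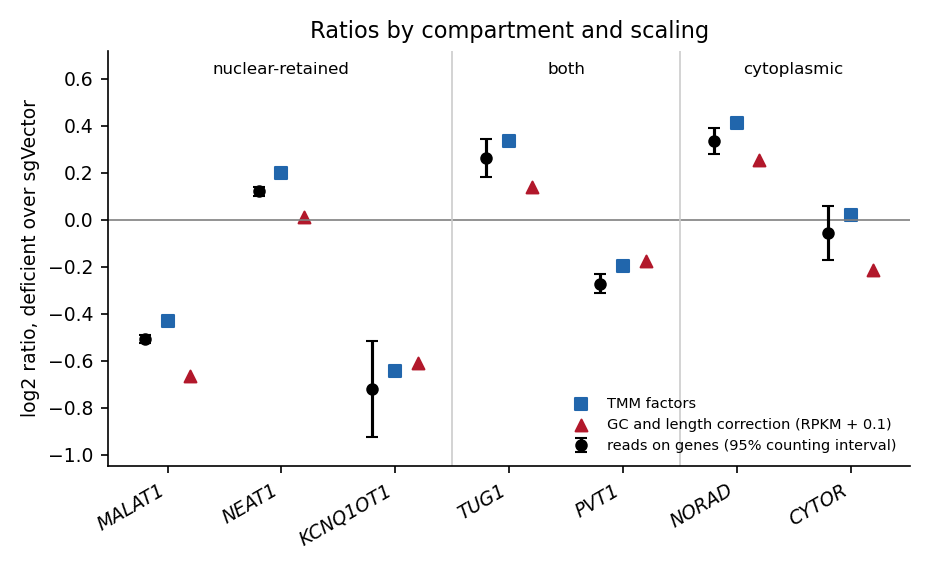
The log2 ratio, deficient over sgVector, of 7 lncRNA genes by compartment from read shares (black, with 95% counting intervals), with TMM factors (blue squares) and after a GC and length correction (red triangles). MALAT1, KCNQ1OT1 and PVT1 stay below 0 and TUG1 and NORAD above 0 in all 3, while NEAT1 falls to 0.01 with the correction and CYTOR changes sign.

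The genes that work with these RNAs came from lists of background knowledge. Beside the counts of each list, 55.5% of all genes past the floor had a log2 ratio below 0. Of 17 paraspeckle protein genes past the floor 8 were higher and 9 lower, none of them 2-fold. The median log2 ratio of -0.02 turned to 0.05 with TMM, 0.03 with centring and 0.009 with upper-quartile scaling. The core paraspeckle genes NONO and SFPQ, whose proteins bind NEAT1, had log2 ratios of -0.11 (82.6 against 89.4 RPKM) and -0.02 (30.5 against 31.0 RPKM), and PSPC1 0.21. RBM14, needed for paraspeckle assembly, was the lowest at -0.57 (16.2 against 24.2 RPKM) and HNRNPK the highest at 0.37 (97.2 against 75.2 RPKM). The paraspeckle genes as a list thus lay near the median of all genes.

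Of 15 nuclear speckle genes 9 were higher and 6 lower, with a median of 0.02 that became -0.05 with the GC and length correction. SON, which organises the speckle core, was at 0.16, SRSF1, a splicing factor described as bound by MALAT1, at 0.26, and SRRM1, a splicing coactivator, at -0.31. None differed 2-fold. The speckle genes did not show the lower level of MALAT1 itself.

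The 3' ends of MALAT1 and NEAT1 are cut by RNase P, whose subunits are the POP and RPP proteins. The list for 3' end maturation held these subunit genes and also ELAC2 and METTL16, which are not POP or RPP genes and were both at -0.11. Of its 11 genes past the floor 2 were higher and 9 lower, with a median of -0.26 and none at 2-fold. The subunit gene POP5 was at -0.84 (101 reads against 182), RPP21 at -0.90 (22 against 43) and POP1, the largest subunit, at 0.90 (484 against 253). Of 17 genes for decay of nuclear RNA 6 were higher and 11 lower, with a median of -0.15, from PABPN1, a nuclear poly(A) binding protein, at -0.68 to RBM7, an adaptor of the nuclear exosome, at 0.74. For these lists the counting interval lay above no change for 1 and 4 genes and below it for 5 and 9, beside 25.9% and 32.6% of all genes past the floor. The median of the first list was -0.13 with the GC and length correction, and that of the second -0.079 with TMM.

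The genes tied to NORAD leaned the same way as NORAD. PUM2 had 16.0 RPKM in the deficient against 11.6 in the sgVector library, 1.38-fold higher (1.28 to 1.48). Of the 7 genes, 6 were higher and 1 lower, with a median of 0.15. Of all genes past the floor 55.5% were below 0. The counting interval lay above no change for 5 of the 7 and below it for none, beside 25.9% and 32.6% of all genes. It narrows with read number, and these genes had 902 reads or more in each library. TOP1, a DNA topoisomerase, was the lowest at -0.01, and PRPF19 and CDC5L, subunits of a splicing complex, were at 0.05 and 0.16.

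**Figure D4:**
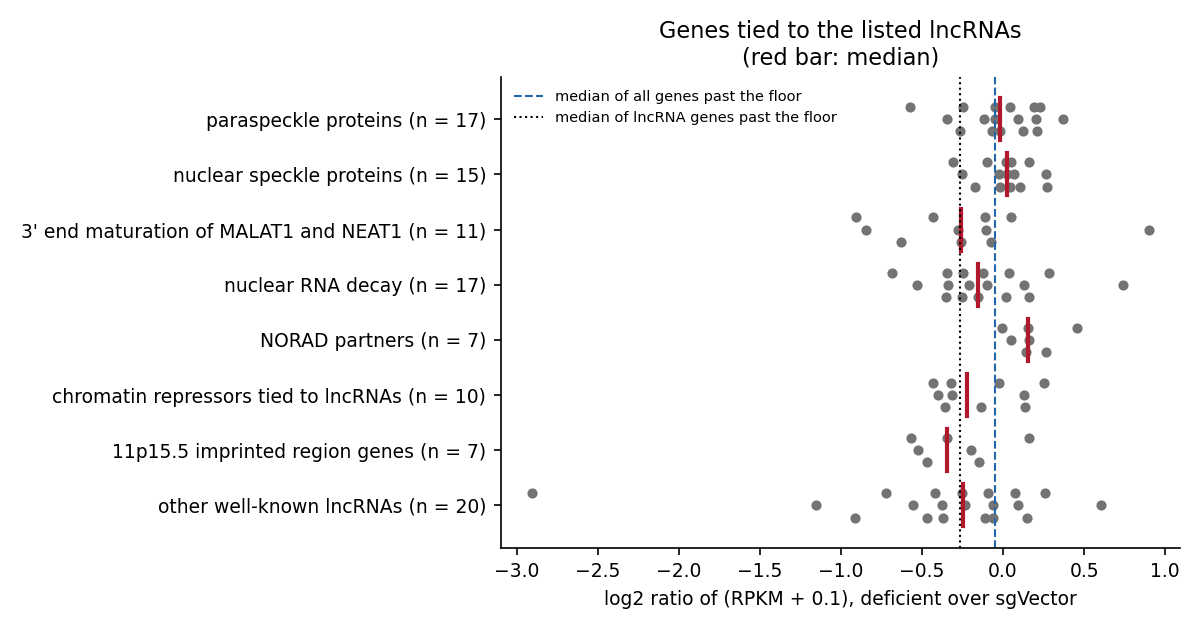
The log2 ratio of RPKM plus 0.1, deficient over sgVector, of genes past the floor in 8 lists (grey points, 1 per gene; red bar, list median; dashed and dotted lines, medians of all genes, -0.05, and of lncRNA genes, -0.27). The medians run from -0.34 for the 11p15.5 genes to 0.15 for the NORAD partners.

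KCNQ1OT1 and H19 both lie in the imprinted region 11p15.5. Of 13 genes listed there 7 passed the floor, of which 6 were lower and 1 higher, with a median of -0.34 and none at 2-fold. The median was -0.15 with the GC and length correction and also -0.15 with no floor. PHLDA2, a growth-restraining imprinted gene, had 58.7 RPKM in the deficient against 84.5 in the sgVector library, 1.44-fold lower (1.32 to 1.57). CDKN1C, the cell cycle inhibitor gene that KCNQ1OT1 is known to silence in cis, had 69 reads against 103, 1.51-fold lower (1.10 to 2.08), and OSBPL5 was at 0.16. IGF2, the growth factor gene that shares enhancers with H19, had 0 reads in both libraries. Of 10 chromatin repressor genes tied to such RNAs 3 were higher and 7 lower, with a median of -0.22 (-0.15 with TMM), among them EZH2, the Polycomb methyltransferase, at -0.40 and EHMT2, the G9a methyltransferase, at -0.36.

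The protein-coding genes around each locus were read next. MALAT1 and NEAT1 share their surroundings, and the 55 genes within 1 Mb of MALAT1 had a median log2 ratio of -0.09, with 20 above and 35 below 0. Over all protein-coding genes past the floor the median was -0.03, with 53.6% below 0. The nearest to NEAT1, FRMD8, was at 0.44. The 28 genes around NORAD had a median of -0.03. EPB41L1, 40.5 kb from NORAD, was at 0.65 with 510 reads against 315. MYC, the nearest to PVT1, had 107.5 RPKM in the deficient against 109.8 in the sgVector library, a log2 ratio of -0.03.

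TUG1 stood opposite to its neighbours. Of 23 protein-coding genes within 1 Mb, 21 were below 0, with a median of -0.42, while TUG1 was at 0.26. Of all protein-coding genes past the floor 53.6% were below 0. MORC2, a chromatin-compacting ATPase gene transcribed in the other direction from 0.947 kb away, had 697 reads in the deficient against 903 in the sgVector library, 1.31-fold lower (1.18 to 1.45). SMTN, a cytoskeletal gene on its other side, was 1.995-fold lower (1.80 to 2.21) with 576 reads against 1137. The gene pair around 1 start region thus differed in opposite directions. The log2 ratio of TUG1 stayed between 0.14 and 0.33 over the alternatives run, which were not run on its neighbours.

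**Figure D5:**
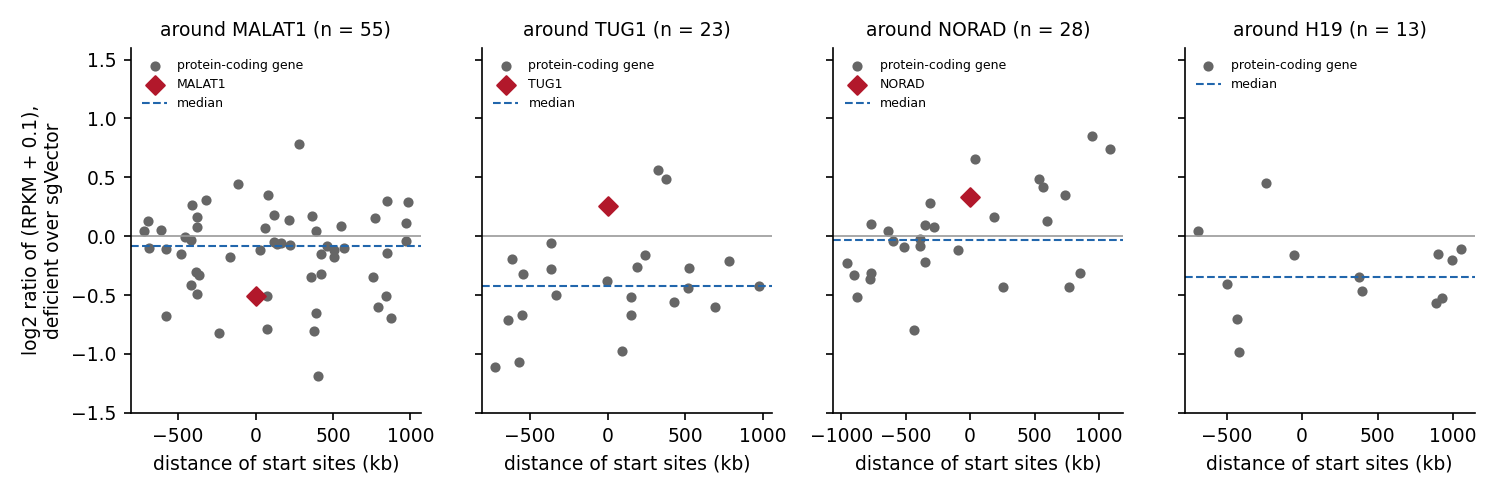
The log2 ratio of RPKM plus 0.1, deficient over sgVector, of protein-coding genes past the floor within 1 Mb of 4 lncRNA genes, against the distance of their start sites in kb along the chromosome (grey points, genes; red diamond, the lncRNA; dashed line, median of the neighbours; H19 itself has too few reads to plot). Around TUG1 21 of 23 genes lie below 0, beside 53.6% of all protein-coding genes past the floor, and TUG1 above it.

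Among 5 members with a RefSeq promoter entry, TUG1 and NORAD held the letters CACGTG, a palindrome known as an E-box that MYC and related factors bind. The motif was picked after the promoters were read, and it occurs in 7.26% of 35116 human promoters of the same 300 bases. NEAT1, PVT1 and KCNQ1OT1 had no entry, so the motif cannot be set against the ratios, and a link was not tested. No match was found in the entries of MALAT1, H19 and CYTOR. The windows run from 250 bases before to 50 after the annotated start on build GRCh38.p14, chr20:36050911-36051210 on the minus strand for NORAD and chr22:30969015-30969314 on the plus strand for TUG1, with the motif in capitals at bases 113 and 174.

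NORAD promoter: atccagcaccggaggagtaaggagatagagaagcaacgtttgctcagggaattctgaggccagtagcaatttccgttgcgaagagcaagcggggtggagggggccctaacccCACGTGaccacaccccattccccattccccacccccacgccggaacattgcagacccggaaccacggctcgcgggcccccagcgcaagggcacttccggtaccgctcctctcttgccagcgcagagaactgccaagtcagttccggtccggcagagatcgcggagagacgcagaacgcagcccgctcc

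TUG1 promoter: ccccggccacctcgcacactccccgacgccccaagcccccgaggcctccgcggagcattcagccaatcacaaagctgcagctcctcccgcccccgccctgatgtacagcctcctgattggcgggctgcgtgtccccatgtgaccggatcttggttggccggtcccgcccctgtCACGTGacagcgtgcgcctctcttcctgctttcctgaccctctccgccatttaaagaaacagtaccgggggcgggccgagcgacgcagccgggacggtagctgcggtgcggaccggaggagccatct

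With 2 libraries, a likeness between lncRNA genes is one of level more than of pattern. It was measured as the distance between genes in the plane of their log2 levels in both libraries. CYTOR lay closest to SAP30-DT (distance 0.05), PVT1 and NEAT1 to ZFAS1 (0.11 and 0.19) and NORAD to DANCR (0.40). MALAT1 had no close match, the nearest being LINC03061 at 1.82, at a log2 ratio of -0.74 with 10916 reads against 17997. Of the 10 lncRNA genes with the highest mean RPKM and at least 100 reads, all but NEAT1 had a log2 ratio below 0. These ran from -0.74 for LINC03061 to -0.01 for SNHG29, so MALAT1 was not unusual in its direction.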

How the data were processed

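RNA of SUM-159 cells was sequenced in 1 library per group. The tools were featureCounts 1.6.4 and Subread and the build GRCh37 (hg19), per the submitters' processing notes. The sources used here do not state aligner settings, annotation release, strand setting or the treatment of multiply mapped reads. The labels describe poly(A) enrichment or ribosomal RNA removal and give polyA RNA as the molecule. The authors deposited RPKM per gene with hg19 exon coordinates and lengths, per the file headers.

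Whole reads were recovered from the RPKM steps for 100% of values (within 1e-06 of a read), and 41 pseudoautosomal duplicate rows of 60880 were left out. Ratios used RPKM plus 0.1, a floor of a mean of 1 RPKM and a 2-fold call. Folds are ratios of read shares with 95% Clopper-Pearson limits, which cover counting error only; PCR copies are not independent molecules. A count of 0 allows 3 reads, or 0.183 and 0.185 reads per 1000000. Gene types, GC content and transcripts came from GENCODE release 29 (GRCh38), matched by identifier for 93.4% of rows, and promoters from RefSeq. The lncRNA class is that of GENCODE, unassigned (TEC) types included. Motif shares used the longest transcript per gene within 20% of the length. Alternatives were pseudocounts, floors, TMM and upper-quartile scaling, centring, TPM, removal of mitochondrial genes, a GC and length correction, other compartments and fold thresholds. Genes named were the members, up to 3 highest and 3 lowest of each list by log2 ratio, the partners with reads, the nearest neighbours and the lncRNA gene most like each member. NONO, SFPQ, GAS5, IGF2 and the label checks were added with their values known. ELAC2, METTL16, RN7SK, TERC, OVCH1-AS1, SNHG29 and the let-7 list genes below the floor are also named, outside these rules. Members and lists were chosen with earlier results of these data known. Intervals were tested on simulated reads drawn with counting error only, so that check says nothing about differences between cultures. Python 3.11.15, scipy 1.17.1 and statsmodels 0.14.6 were used. TALAM1, MIR675, MIR612 and MIR1204 are not analysed here. Some items are not reported here.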

Additional observations from a re-analysis of the deposited data

How the results depend on the processing

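No paired analysis was possible because each group has 1 library, and no library could be left out. None of the members compared passed the fold threshold in either direction under any of 13 alternatives, among them a threshold of 1.5-fold. The 4-fold threshold, the floor of 5 RPKM and the demand for a whole interval past 2-fold are stricter than the main call. Their count of 0 was thus fixed in advance. MALAT1 stayed below 0 (-0.67 to -0.43), as did PVT1 (-0.30 to -0.17) and KCNQ1OT1 (-0.69 to -0.16), and NORAD (0.25 to 0.41), TUG1 (0.14 to 0.33) and NEAT1 (0.01 to 0.20) stayed above 0 over 8 alternatives each. CYTOR changed sign (-0.22 to 0.02). The median of the 6 members past the floor, 0.03 as reported, was 0.11 with TMM, -0.082 with the GC and length correction and 0.12 without MALAT1, the member farthest from it. The nuclear median, -0.19 as reported, was -0.12 with TMM, -0.16 with upper-quartile scaling, -0.14 with centring, -0.15 as TPM, -0.22 without mitochondrial genes, -0.33 with the GC and length correction, -0.51 with no floor and -0.076 with TUG1 and PVT1 counted as nuclear. The cytoplasmic median, 0.14 as reported, was 0.019 with the GC and length correction. Their difference, -0.33 as reported, was -0.70 with no floor, which adds KCNQ1OT1 and H19, and -0.21 with TUG1 and PVT1 as nuclear. With no floor the cytoplasmic median is the value of H19 itself, from 3 reads against 2, so the -0.70 rests on too few reads to be used. The paraspeckle median, -0.02 as reported, was 0.054 with TMM, 0.030 with centring and 0.0094 with upper-quartile scaling, where the scaling itself raises every ratio. The median of let-7 targets was 0.00 with no floor. That adds LIN28A and LIN28B, with 0 reads in both libraries, and IGF2BP1 and IGF2BP3. The latter pair were higher in the deficient library, with 5 reads against 1 and 109 against 80. Leaving out the farthest member was not run for the compartment pairs, where both members lie equally far from the median. Counting error is small for MALAT1, NEAT1, PVT1 and NORAD and limits CYTOR, KCNQ1OT1 and H19, and differences between cultures are unknown for all 8.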

Other observations

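Other well-known lncRNA genes leaned lower in the deficient library, as lncRNA genes did in general. Of 20 past the floor 5 were higher and 15 lower, with a median log2 ratio of -0.24 (-0.11 with no floor). The median of all lncRNA genes past the floor was -0.27. In the list 2 were at least 2-fold lower, beside 14.5% of lncRNA genes past the floor. LINC-PINT, a p53-induced RNA, had 163 reads in the deficient against 376 in the sgVector library, 2.33-fold lower (1.94 to 2.82). BCYRN1, a short RNA of neurons and tumours transcribed by RNA polymerase III, had 7 reads against 54. Its GENCODE type is scRNA, so it is outside the lncRNA class used here. The treatment of reads that fit several places is not known for it either. At the other end OIP5-AS1, a cytoplasmic RNA that binds the RNA-stabilising protein HuR, had 13.1 RPKM against 8.60, 1.53-fold higher (1.44 to 1.62). GAS5, a host of small nucleolar RNAs, had 47.8 against 57.1 RPKM, a log2 ratio of -0.25.

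H19 is known to bind the microRNA let-7 and had too few reads here for a comparison. Of 8 let-7 target genes 4 passed the floor, with 1 higher, 3 lower and a median of -0.47. HMGA2, a chromatin protein of embryonic and tumour cells, had 195 reads in the deficient against 421 in the sgVector library, 2.18-fold lower (1.84 to 2.60). DICER1, the enzyme that releases mature microRNAs, had 1924 reads against 1235, 1.54-fold higher (1.43 to 1.66).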
